A study of Homo sapiens with 6 samples.

Results

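The genes described here are 8 factors that form, restrain, bind or export circular RNA: QKI, MBNL1, HNRNPL, DHX9, ILF2, DDX39A, DDX39B and YTHDF2. They were taken by symbol from a table of 27328 loci, each symbol matched 1 row, and all 8 passed the filter on low values that kept 12064 loci for testing. All libraries were made from SACC-83, a human line established from adenoid cystic carcinoma of a salivary gland. The overexpression group (OE, n = 3) was made to overexpress circMYBL1, a circular RNA named after the gene MYBL1, and the control group (Vec, n = 3) carried the vector alone and is labelled WT. The genotype labels of OE replicates 1, 2 and 3 read circMYBL1, circMYBL2 and circMYBL3, whereas the design names circMYBL1 only, so their standing as replicates of 1 construct is uncertain. The stated purpose was to find target genes of the circle. The labels name no promoter for the construct and do not state whether the libraries of a group are separate cultures. The p-values therefore measure only how far these libraries scatter, and that scatter may be technical.

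A circular RNA forms when the spliceosome joins the end of an exon to the start of the same or an earlier exon, a reaction called back-splicing. Pairing between inverted repeats in the flanking introns, or proteins that bind both introns, bring the ends together, while helicases and editing enzymes that open such pairing hold the reaction back. Circles then leave the nucleus with the help of RNA helicases and resist exonucleases, and those that carry N6-methyladenosine can be bound by reader proteins and cut by endonucleases. A circle made from a construct, such as circMYBL1 here, may use the same machinery, whose mRNA levels are given here.

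MYBL1, the host gene of the circle, measured 359, 44.0 and 2025 FPKM in OE replicates 1, 2 and 3, against 9.04, 7.15 and 10.3 FPKM in Vec replicates 1, 2 and 3. FPKM is the fragment number scaled to gene length and library size, as the authors deposited it. The OE libraries thus all lay above the Vec libraries and differed widely among themselves, and a gene-level value does not separate circle, construct and linear mRNA. The epithelial markers EPCAM, KRT8 and KRT18 lay between 76.3 and 1123 FPKM in all 6 libraries, CDH1 between 8.61 and 21.3, while KRT19 stayed at 1.10 or less. PTPRC and COL1A2 were listed at 0 in every library. Summed FPKM per library lay between 371776 and 408826, and read depth is unknown from these values.

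All 8 factors were expressed, from 15.5 FPKM for QKI to 184 FPKM for DDX39B as means of the 6 libraries, against a median of 9.83 FPKM over the kept loci. DDX39B ranked 268th and QKI 4274th of 12064 by this length-scaled level. The order downward was DDX39B, ILF2 (152 FPKM), DHX9 (97.4), HNRNPL (88.7), DDX39A (80.6), MBNL1 (36.1), YTHDF2 (29.4) and QKI. DDX39B exceeded ILF2 and ILF2 exceeded DHX9 in 6 of 6 libraries. DHX9 and HNRNPL traded places between libraries, with DHX9 higher in 4 of 6, HNRNPL was above DDX39A in 5 of 6, and MBNL1 was above YTHDF2 in 5 of 6. The values of DDX39A and MBNL1 did not overlap across the libraries, nor did those of YTHDF2 and QKI.

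**Figure D1:**
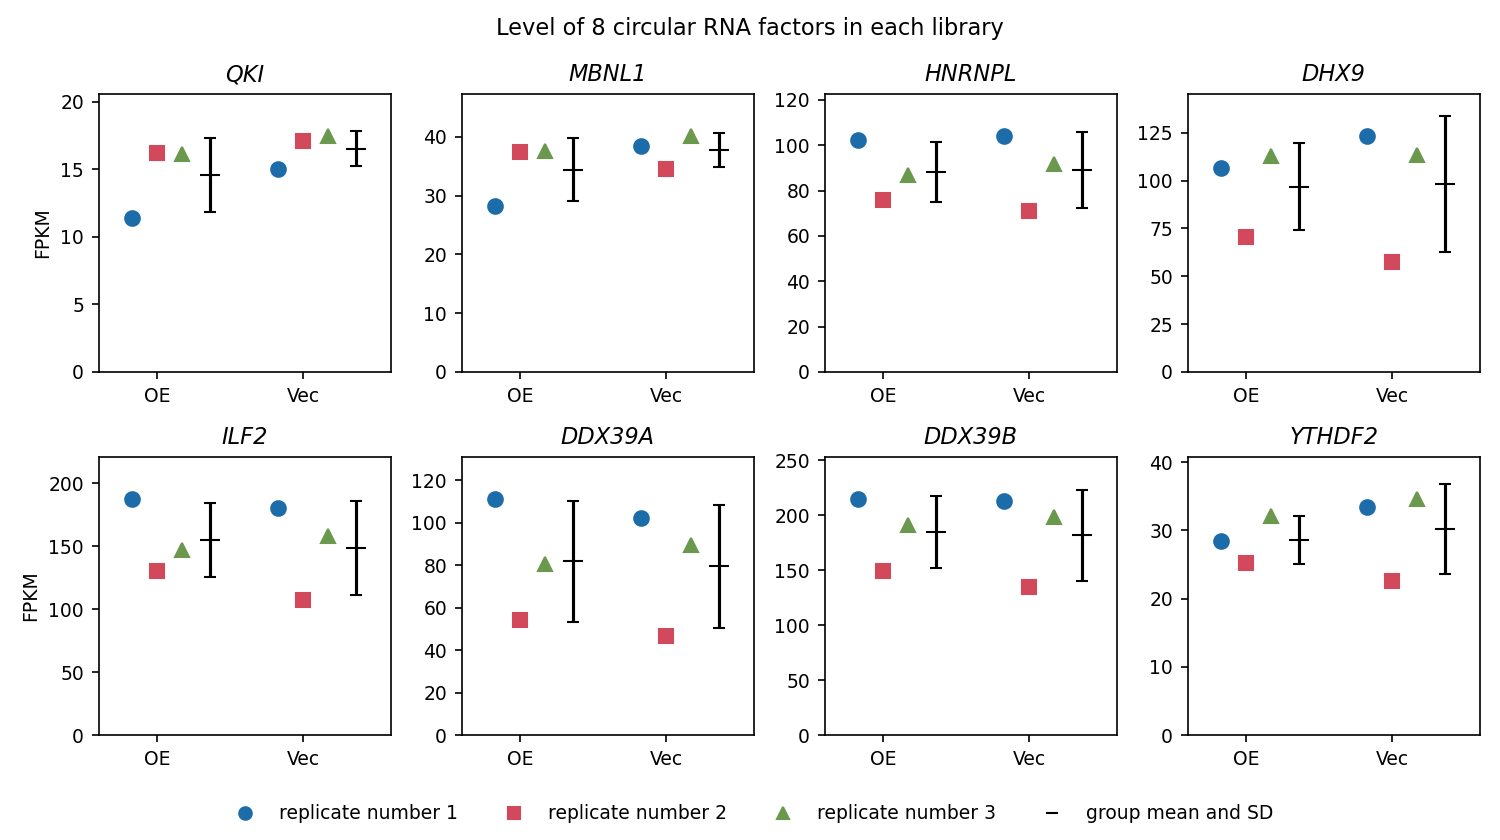
Level of each factor in FPKM on a linear axis from 0, with OE libraries left and Vec libraries right, symbols for the replicate number, and bars for group mean and SD (n = 3). The groups overlap for all 8 genes, and the squares, number 2, lie lowest for 6 of them, as for DDX39A at 54.0 FPKM in OE and 46.9 in Vec.

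None of the 8 genes differed between the groups by the test. A limma fit of log2(FPKM + 1) with group as the only term called 0 of 8 at an adjusted p under 0.05 and 0 of 8 at an unadjusted p under 0.05. Over all kept loci that fit called 0 of 12064 (0.0%) after Benjamini-Hochberg adjustment and 65 (0.539%) unadjusted. MYBL1 was not called after adjustment either, at a log2 fold change of 5.04 (SE 1.215). In this fit 0 of 8 therefore does not show that the members were unchanged. With replicate number as a block, which removes what same-numbered OE and Vec libraries share, limma again called 0 of the 8 on either rule, against 12 loci (0.0995%) adjusted and 868 (7.19%) unadjusted. MYBL1 was among these 12 (limma with the block, adjusted p = 0.02255). The ranges of OE and Vec overlapped for all 8, where 3.34% of the kept loci had ranges that did not. The members' median log2 fold change was 0.01, beside 0.03 over all kept loci, with 4 members higher and 4 lower in OE.

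The factors that act on the introns around a circle come first. QKI (ENSG00000112531, chromosome 6, 163414000 to 163578596, plus strand in GENCODE release 29 on GRCh38) binds introns flanking circle-forming exons and promotes many circles during epithelial-mesenchymal transition. QKI measured 11.4, 16.2 and 16.1 FPKM in OE replicates 1, 2 and 3, against 15.0, 17.1 and 17.5 FPKM in Vec replicates 1, 2 and 3. It was the only member lower in OE in 3 of 3 same-numbered pairs, a pattern held by 11.8% of the kept loci, and the 3 log2 differences were -0.37, -0.07 and -0.11. The log2 fold change was -0.18 (limma, SE 0.18, adjusted p = 1.0; with the block SE 0.10, adjusted p = 0.763). The 95% interval of the block fit ran from -0.41 to 0.05, that is from 0.751-fold to 1.03-fold. Pair 1 gave most of this difference: without OE replicate 1 the log2 fold change was -0.03.

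MBNL1 (ENSG00000152601, chromosome 3, 152243828 to 152465780, plus strand) is a splicing regulator whose fly counterpart, muscleblind, promotes a circle from its own transcript. It measured 28.3, 37.4 and 37.6 FPKM in OE replicates 1, 2 and 3, against 38.5, 34.5 and 40.2 FPKM in Vec replicates 1, 2 and 3. OE replicate 1 was the lowest of the 6 and the other 5 lay close together. The log2 fold change was -0.14 (limma, SE 0.16, adjusted p = 1.0), and the block interval ran from -0.39 to 0.12. Without replicate 1 of both groups it was 0.01. A pair of annotated antisense genes, MBNL1-AS1 and AC026347.1, share 1140 and 415 exon bases with MBNL1, and without stated strand use their reads cannot be told apart.

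HNRNPL (ENSG00000104824, chromosome 19, 38836388 to 38852347, minus strand), an hnRNP that binds CA-rich RNA and regulates back-splicing in prostate cancer cells, was the member closest to no difference. It measured 102, 76.0 and 86.8 FPKM in OE replicates 1, 2 and 3, against 104, 71.0 and 91.8 FPKM in Vec replicates 1, 2 and 3, and each OE value lay near that of the same number in Vec. The log2 fold change was -0.003 (limma, SE 0.19, adjusted p = 1.0), and the block interval ran from -0.20 to 0.20. Its sign turned in 6 of 21 alternatives. AC008982.1, which shares 561 exon bases with HNRNPL on the same strand, was listed at 0 in OE and at 2.30, 0 and 0.763 FPKM in Vec replicates 1, 2 and 3.

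The next members act on double-stranded RNA. DHX9 (ENSG00000135829, chromosome 1, 182839369 to 182887751, plus strand) is a helicase that unwinds inverted Alu repeats and so restrains circle formation. It measured 107, 70.6 and 113 FPKM in OE replicates 1, 2 and 3, against 123, 57.5 and 114 FPKM in Vec replicates 1, 2 and 3. Libraries numbered 2 were the lowest of both groups. Group means were 96.7 ± 22.8 FPKM in OE and 98.1 ± 35.5 FPKM in Vec (SD, n = 3 each), with a log2 fold change of 0.02 (limma, SE 0.33, adjusted p = 1.0; block interval -0.22 to 0.27). Trimmed mean and quantile scaling gave -0.003 and -0.01, so no direction can be given.

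ILF2 (ENSG00000143621, chromosome 1, 153661788 to 153671048, minus strand) is a subunit of a nuclear complex that binds double-stranded RNA and promotes circle production. ILF2 measured 187, 130 and 147 FPKM in OE replicates 1, 2 and 3, against 180, 108 and 158 FPKM in Vec replicates 1, 2 and 3. The highest and the lowest value of each group carried numbers 1 and 2. The log2 fold change was 0.08 (limma, SE 0.24, adjusted p = 1.0; block interval -0.14 to 0.29). SNAPIN on the opposite strand shares 43 exon bases with ILF2.

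DDX39A and DDX39B are DEAD-box RNA helicases of the mRNA export machinery. In human cells DDX39A (URH49) favours the export of short circles and DDX39B (UAP56) that of long ones, a division first traced from the fly helicase Hel25E. Their coding sequences were 79.98% identical over 1284 aligned bases, and the longest identical run had 26 bases. The stretch around that run is printed to show how far reads of one gene could fit the other, with the 14 of 90 bases that differ in capitals (bases 347 to 436 of the DDX39A and 350 to 439 of the DDX39B coding sequence, GENCODE release 29, from the start codon).
DDX39A: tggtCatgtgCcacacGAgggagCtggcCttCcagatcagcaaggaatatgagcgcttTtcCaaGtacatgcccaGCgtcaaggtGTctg
DDX39B: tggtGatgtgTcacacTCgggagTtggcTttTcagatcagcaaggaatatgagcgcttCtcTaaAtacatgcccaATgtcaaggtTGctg
None of the 1258 windows of 30 bases in the DDX39B coding sequence occurred in the DDX39A transcript. The read length is not given in the sources used here, and the untranslated part of DDX39B was not compared.

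DDX39A (ENSG00000123136, chromosome 19, 14408819 to 14419383, minus strand) measured 111, 54.0 and 80.3 FPKM in OE replicates 1, 2 and 3, against 102, 46.9 and 89.3 FPKM in Vec replicates 1, 2 and 3. It had the widest span of the 8, 2.37-fold between the lowest and the highest library. The log2 fold change was 0.06 (limma, SE 0.36, adjusted p = 1.0; block interval -0.16 to 0.28), and correction for GC content and length turned it to -0.06. DDX39B (ENSG00000198563, chromosome 6, 31530219 to 31542448, minus strand) measured 215, 149.9 and 191 FPKM in OE replicates 1, 2 and 3, against 213, 134 and 199 FPKM in Vec replicates 1, 2 and 3. Same-numbered libraries again lay side by side. Its log2 fold change was 0.04 (limma, SE 0.23, adjusted p = 1.0; block interval -0.16 to 0.24), with a turn to -0.01 under quantile scaling. The read-through locus ATP6V1G2-DDX39B, which shares 2079 exon bases with DDX39B, was listed at 0 in all 6 libraries.

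The balance of the 2 helicases did not differ between the groups by the test. The ratio of DDX39A to DDX39B was 0.517, 0.360 and 0.420 in OE replicates 1, 2 and 3, against 0.479, 0.349 and 0.450 in Vec replicates 1, 2 and 3. DDX39A was the lesser mRNA in every library, and the ratio was smallest in both libraries numbered 2. The log2 ratio of FPKM + 1 differed by 0.02 between OE and Vec (exact permutation test, 2-sided, p = 0.9; 3 against 3 cannot go below 0.1). It was higher in OE in 2 of 3 pairs, and it turned sign without OE replicate 1 (-0.12) or without Vec replicate 2 (-0.12).

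**Figure D2:**
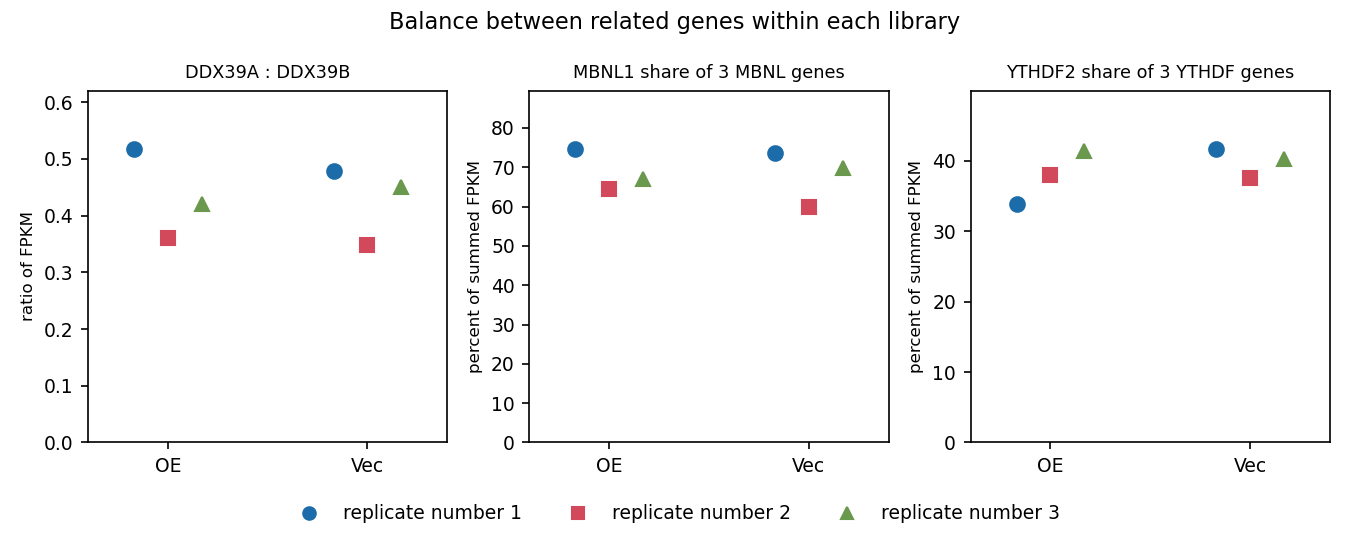
Ratio of FPKM (left panel) and shares of summed FPKM in percent (middle and right panels) within each library, with OE left and Vec right and symbols for the replicate number, on axes from 0. The DDX39A to DDX39B ratio ranges from 0.349 to 0.517 and is lowest in both libraries numbered 2, as is the MBNL1 share, which ranges from 59.9% to 74.6%. In log2 of FPKM + 1, number 2 minus numbers 1 and 3 is 0.003 for MBNL1 itself and 0.55 for MBNL2.

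YTHDF2 (ENSG00000198492, chromosome 1, 28736621 to 28769775, plus strand) reads N6-methyladenosine and, through the adaptor RIDA (HRSP12), brings RNase P/MRP to methylated circles. It measured 28.5, 25.2 and 32.1 FPKM in OE replicates 1, 2 and 3, against 33.4, 22.6 and 34.5 FPKM in Vec replicates 1, 2 and 3. The lowest library of each group was number 2. The log2 fold change was -0.06 (limma, SE 0.20, adjusted p = 1.0; block interval -0.29 to 0.17). YTHDF2 held 37.7% ± 3.77 of the summed FPKM of YTHDF1, YTHDF2 and YTHDF3 in OE and 39.8% ± 2.07 in Vec (SD, n = 3 each). MBNL1 likewise held 68.7% ± 5.30 of the summed FPKM of MBNL1, MBNL2 and MBNL3 in OE and 67.8% ± 7.07 in Vec (SD, n = 3 each).

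**Figure D3:**
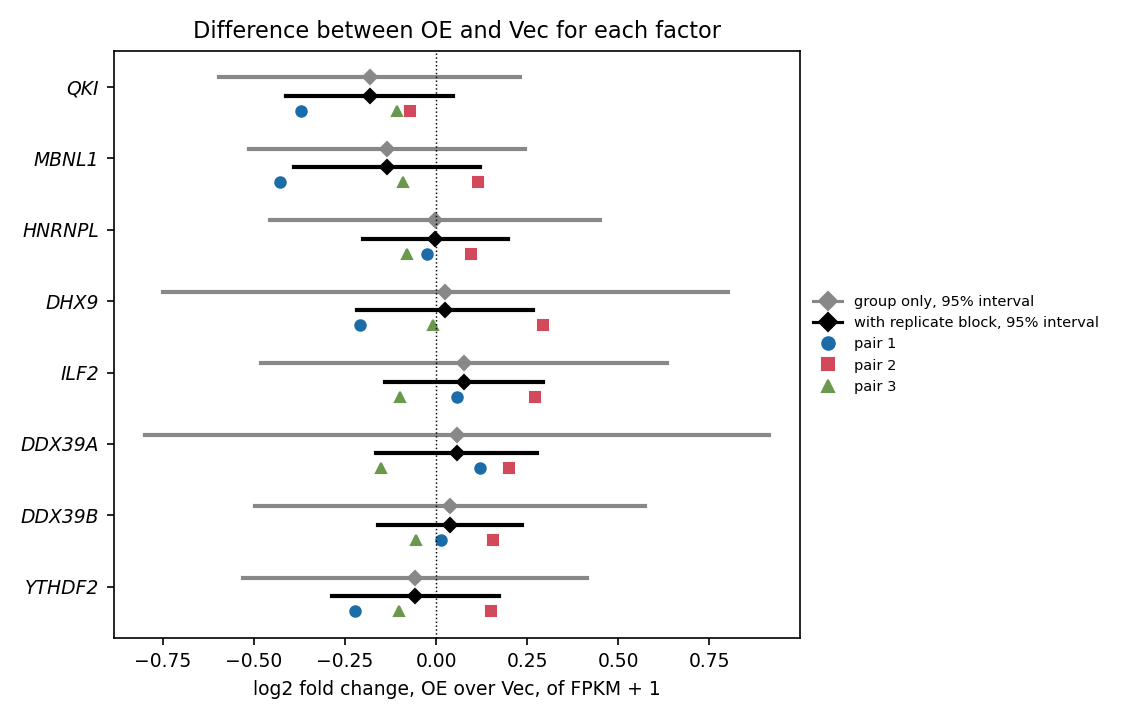
Log2 fold change of OE over Vec of FPKM + 1 for each factor, with 95% intervals from limma without the block (grey) and with it (black), and the 3 same-numbered pairs as symbols. All 16 intervals include 0, and QKI is the only gene whose 3 pairs all lie below 0.

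Most of the 8 genes differed by replicate number. In a limma F test over the 3 numbers, with group in the model, 6 of the 8 passed at an adjusted p under 0.05, against 5605 of all 12064 kept loci (46.5%) and 50.1% of those with a mean of at least 5 FPKM. The 6 were DDX39A (adjusted p = 0.000318), DHX9 (0.00106), DDX39B (0.00397), ILF2 (0.00564), HNRNPL (0.0138) and YTHDF2 (0.0274), whereas QKI (0.0751) and MBNL1 (0.382) did not pass. In all 6, both libraries numbered 2 lay below the other 4, which holds for 25.7% of the kept loci, while 35.9% have both above. What a replicate number stands for is not given in the labels.

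The size of the difference by number varied among the members. DDX39A averaged 50.5 FPKM in number 2, against 106 FPKM in number 1 and 84.8 in number 3. DHX9 averaged 64.1 FPKM in number 2, against 115 in number 1 and 113 in number 3, so numbers 1 and 3 lay close for DHX9 but not for DDX39A. On the log2 scale number 2 minus the mean of numbers 1 and 3 was -0.90 for DDX39A, -0.83 for DHX9, -0.52 for DDX39B, -0.50 for ILF2, -0.41 for YTHDF2 and -0.38 for HNRNPL. MBNL1 stood at 0.003 and QKI at 0.16, beside a median of 0.07 and quartiles of -0.24 and 0.39 over all kept loci. The factors known to bind flanking introns thus split, with HNRNPL below the lower quartile and QKI and MBNL1 between the quartiles.

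The calls by number rest on the libraries numbered 2. Without both of them the F test called 0 of the 8 members (adjusted p from 0.169 to 0.961) and 447 of the kept loci (3.71%). Without Vec replicate 2 alone, 3 members passed, namely DDX39A, DHX9 and ILF2, against 30.4% of the kept loci. In both of these fits limma used a variance fitted over all loci, so the p-values do not measure each gene's own scatter. YTHDF2 did not pass without Vec replicate 3 (limma, adjusted p = 0.0706) or OE replicate 3 (0.0535), on TPM (0.0526) or without a filter (0.0982), HNRNPL did not pass without replicate 1 of both groups (0.0550) or under quantile scaling (0.0657), and ILF2 did not pass without a filter (0.0588). QKI passed without Vec replicate 1 (limma, adjusted p = 0.0294) and on TPM (0.0436).

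Among markers of other cell types, mainly PECAM1 and COL1A1 were higher in the libraries numbered 2. The 2 endothelial markers PECAM1 and CDH5 summed to 1.12 FPKM in OE replicate 2 and 1.33 in Vec replicate 2, against 0.0359 to 0.0745 in the other 4 libraries. Most of this was PECAM1, and neither gene passed the filter, so neither was tested. The 4 fibroblast markers summed to 8.85 and 11.2 FPKM in OE and Vec replicate 2, against 3.07 to 4.64 elsewhere, nearly all from COL1A1. PDGFRB and LUM stayed at 0.117 FPKM or less, and LUM in number 2 overlapped the other libraries. The 5 epithelial markers summed to 1555 and 1373 FPKM in OE and Vec replicate 2, against 1575 to 1893, nearly all from KRT8 and KRT18. CDH1 went the other way and was the only epithelial marker called by number (limma F test, adjusted p = 0.00021), at 20.1 FPKM in OE replicate 2 and 21.3 in Vec replicate 2, against 8.61 to 14.6 in the other 4. COL1A2 and the immune marker PTPRC were at 0 throughout, and the part of these differences in the members' values was not tested. In bulk libraries fewer cells of a type and less RNA per cell cannot be told apart.

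**Figure D4:**
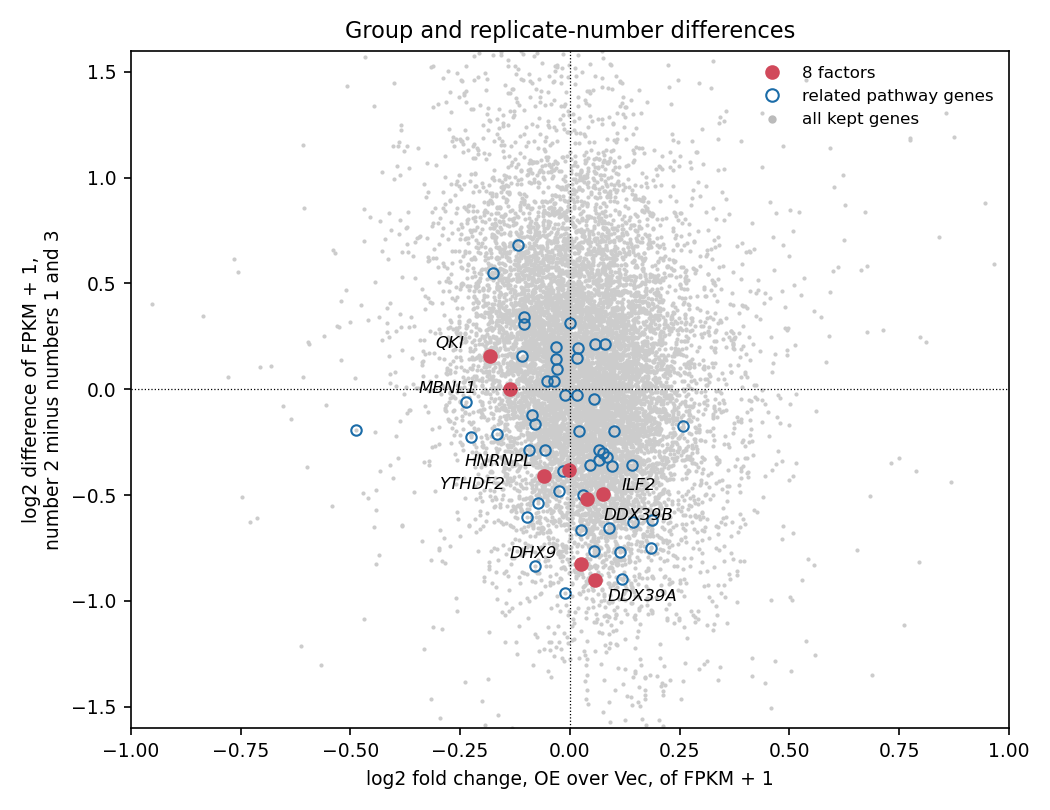
Log2 fold change of OE over Vec (x) against the log2 difference of number 2 minus numbers 1 and 3 (y), both of FPKM + 1, for the 8 factors (filled), 51 related genes (open) and all kept loci (grey, 194 beyond the axes not drawn). The factors spread from 0.16 (QKI) to -0.90 (DDX39A) by number and only from -0.18 to 0.08 by group.

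Members resembled each other to different degrees. Over the 6 libraries the centred log2 profiles of ILF2 and DDX39B differed by a root mean square of 0.067, those of HNRNPL and DDX39B by 0.075 and those of HNRNPL and ILF2 by 0.081, beside spans of their own of 0.272, 0.256 and 0.202 on the same measure for ILF2, DDX39B and HNRNPL. QKI and MBNL1 differed by 0.10. Among 8258 genes with a mean of at least 5 FPKM, the closest to QKI were PRRC2C (0.015) and WRN (0.026), and the closest to MBNL1 were CHD7 (0.033) and KIF21A (0.034). PRRC2C, for example, measured 33.0, 47.0 and 47.1 FPKM in OE replicates 1, 2 and 3, against 43.2, 48.5 and 49.3 in Vec replicates 1, 2 and 3, which is the order of QKI except that OE replicates 2 and 3 change places. The closest to HNRNPL were PPIA and MAD2L1 (0.024 each), to DHX9 COA7 and PRMT5 (0.042 each), and to ILF2 ARPC5L and DCUN1D5 (0.025 each). The closest to DDX39A were ADRM1 (0.034) and TOMM22 (0.036), to DDX39B EIF3L (0.025) and VCP (0.026), and to YTHDF2 TGDS (0.030) and E2F7 (0.035).

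The start-site regions in RefSeq (GRCh38.p14, 250 bases before to 50 after the start) were read for 7 of the members, with 12 start sites in all. QKI had no entry there. The regions were read after 6 members were seen to be low together in number 2, and a link to that difference was not tested. The motifs searched, on both strands, were CCAAT, the ETS core CCGGAAG, the E-box CACGTG, the cAMP response element TGACGTCA, the YY1 core AAGATGGC, TATAAA and the NRF1 palindrome. CCAAT on either strand stood in 7 of these 12 regions, from DDX39A, DHX9, HNRNPL, ILF2 and YTHDF2, and in 34.6% of all 35116 regions. ILF2 held 5 copies, a number reached by 126 of all regions (0.359%), and each DDX39A region and the second HNRNPL region held 3, a number reached by 3.26%. The 2 DDX39A regions overlap, and so do MBNL1 regions 1 and 3. DDX39B held no CCAAT but 1 ETS core, found in 10.3% of all regions, and a TATAAA, found in 11.5%. MBNL1 held 1 E-box (7.26% of all regions), and the cAMP response element (1.85%), the YY1 core (2.89%) and the NRF1 palindrome (1.24%) stood in none of the 12. No 2 matches overlapped. Printed are the ILF2 region (chr1:153670944-153671243, minus strand), with the most CCAAT copies of the 12, and 2 helicase regions that differ in these letters. These are the first DDX39A region (chr19:14419334-14419633, minus strand) and the DDX39B region (chr6:31541954-31542253, minus strand). Capitals mark the motifs found.
ILF2: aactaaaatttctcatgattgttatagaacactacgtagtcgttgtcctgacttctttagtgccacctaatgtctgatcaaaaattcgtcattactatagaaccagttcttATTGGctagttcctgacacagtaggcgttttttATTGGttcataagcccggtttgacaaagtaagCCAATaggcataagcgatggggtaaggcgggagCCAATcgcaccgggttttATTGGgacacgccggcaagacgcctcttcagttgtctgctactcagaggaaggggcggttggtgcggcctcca
DDX39A: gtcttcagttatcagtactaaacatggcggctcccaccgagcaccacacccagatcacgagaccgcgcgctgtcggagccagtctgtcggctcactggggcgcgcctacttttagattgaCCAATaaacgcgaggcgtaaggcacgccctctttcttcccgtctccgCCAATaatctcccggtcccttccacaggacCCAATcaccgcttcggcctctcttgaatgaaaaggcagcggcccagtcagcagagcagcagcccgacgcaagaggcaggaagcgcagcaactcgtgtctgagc
DDX39B: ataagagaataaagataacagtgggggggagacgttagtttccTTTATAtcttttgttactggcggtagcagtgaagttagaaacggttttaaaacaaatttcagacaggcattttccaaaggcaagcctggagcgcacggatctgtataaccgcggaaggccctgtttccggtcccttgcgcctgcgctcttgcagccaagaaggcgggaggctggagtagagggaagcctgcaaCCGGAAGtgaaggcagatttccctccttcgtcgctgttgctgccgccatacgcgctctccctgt
A match is a run of letters and no measured binding, and these libraries do not measure what occupies the regions.

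A wider set of 54 genes of circular RNA biology, of which 51 passed the filter, gave no call between the groups either. limma called 0 of the 51 with and without the block. At an unadjusted p under 0.05 it called 1 of the 51 (G3BP1) without the block, beside 0.539% of all kept loci. With the block it called 3 of the 51 (G3BP1, ALKBH5 and YTHDC1), beside 7.19% of all kept loci. Of the 51, 25 were higher and 26 lower in OE, and the median log2 fold change was 0.0. By replicate number 22 passed (43.1%), a share near the 46.5% of all kept loci. Of the 22, 18 had both libraries numbered 2 below the other 4, 3 had them above and ADARB1 had neither. Of all 5605 loci called by number, 37.6% had both below and 54.0% both above.

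Of the 13 back-splicing regulators 10 were tested, as RBM20, NOVA2 and MBNL3 lay below the filter, and 8 passed by number. HNRNPM, an hnRNP that regulates splicing, averaged 102 FPKM in number 2, against 189 in number 1 and 160.1 in number 3. SFPQ, SRSF1, KHSRP and ESRP2 were likewise lowest in both libraries numbered 2, whereas ESRP1, HNRNPLL and MBNL2 were highest there. HNRNPLL passed narrowly (limma F test, adjusted p = 0.04998) and lost the call in 13 of 19 alternatives, pseudocounts of 0.1 (0.0529) and 0.5 (0.0513) among them, and KHSRP lost it in 7 of 19. ESRP1, an epithelial splicing factor, averaged 3.98 FPKM in number 2, against 1.90 in number 1 and 2.34 in number 3, the opposite order to its relative ESRP2. NONO had the highest mean level of the list at 218 FPKM. Between the groups the largest positive log2 fold change was 0.19 for ESRP2 and the largest negative -0.18 for MBNL2, neither called.

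Among the 5 double-stranded RNA binding and editing genes 2 passed by number, ZFR and ADARB1. The call of ADARB1 (limma F test, adjusted p = 0.0452) was lost in 12 of 19 alternatives, on TPM (0.0928), without a trend (0.0564) and with library weights (0.0680) among them. ADAR, the main editing enzyme and a restraint on circles, did not pass (limma F test, adjusted p = 0.0841) and had the highest mean level of the list at 70.7 FPKM. DHX9 exceeded ADAR 1.78-fold and 1.47-fold in OE replicates 1 and 3, but was 0.883 of it in OE replicate 2. In Vec the ratios were 1.94, 0.763 and 1.66 for replicates 1, 2 and 3, so ADAR was the higher of the 2 restraining factors in both libraries numbered 2 and DHX9 in the other 4. EIF2AK2 (PKR), which binds circles with short duplexes, gave the largest positive log2 fold change by group, 0.08, and ADARB1 the largest negative, -0.17.

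Of 9 export genes tested, 5 passed by number (55.6%), against 46.5% of all kept loci and 50.1% of those with a mean of at least 5 FPKM. All 5 were lowest in both libraries numbered 2, which holds for 37.6% of all loci called by number. They were ALYREF, which recruits the export receptor to mRNA (limma F test, adjusted p = 0.000327), EIF4A3 (0.000407), RAN (0.00114), RANGAP1 (0.00139) and NXF1 (0.00273). ALYREF averaged 43.0 FPKM in number 2, against 87.6 in number 1 and 74.1 in number 3. The members DDX39A and DDX39B were likewise lowest in number 2. RAN, the small GTPase of nuclear transport, had the highest mean of the list at 231 FPKM. XPO4 and IGF2BP1, both reported to export circles, did not pass (adjusted p = 0.169 and 0.745). By group EIF4A3 gave 0.19 and YTHDC1, a nuclear reader that promotes export of a methylated circle, -0.22 (15.6, 15.3 and 18.8 FPKM in OE, against 18.7, 16.8 and 23.3 in Vec, for replicates 1, 2 and 3).

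Of 6 core splicing factors whose loss raises circle levels in fly cells, SF3A1 and SLU7 passed by number (SLU7 in 13 of 19 alternatives) and 0 by group, with extremes of 0.07 (SNRNP70, also the highest at 101 FPKM) and -0.11 (CDC40). Of 10 genes of N6-methyladenosine marking and reading, YTHDF3 and EIF4G2 passed by number. YTHDF3 (limma F test, adjusted p = 0.0453) lost the call in 9 of 19 alternatives. EIF4G2, which supports cap-independent translation of circles, had the highest level of all 54 genes at 517 FPKM. The demethylase ALKBH5 measured 27.7, 21.0 and 21.3 FPKM in OE replicates 1, 2 and 3, against 19.4, 17.9 and 20.4 FPKM in Vec replicates 1, 2 and 3. Its ranges did not overlap, as for 2.5% of the kept loci in that direction, but it was not called (log2 fold change 0.26, limma with the block, adjusted p = 0.65). VIRMA, a subunit of the methyltransferase, gave -0.08.

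Of 11 decay genes, POP1 and RPP30 of RNase P/MRP and the exosome nuclease DIS3 passed by number, all lowest in both libraries numbered 2. DIS3 (limma F test, adjusted p = 0.0445) lost the call in 9 of 19 alternatives, POP1 and RPP30 in 1 each. RIDA, the adaptor of YTHDF2, passed neither test and measured 12.1, 12.5 and 9.43 FPKM in OE replicates 1, 2 and 3, against 10.1, 12.0 and 12.7 FPKM in Vec replicates 1, 2 and 3. G3BP1, which with UPF1 degrades structured RNA, measured 33.8, 31.2 and 33.5 FPKM in OE replicates 1, 2 and 3, against 44.97, 40.6 and 54.7 FPKM in Vec replicates 1, 2 and 3. All OE values lay below all Vec values, which holds for 0.845% of the kept loci. G3BP1 was named as the largest negative fold change of its list. Of the 51 tested genes, only G3BP1 and ALKBH5 had ranges that did not overlap, as had 3.34% of the kept loci in either direction. The log2 fold change of G3BP1 was -0.49 (limma, SE 0.15, adjusted p = 1.0; with the block SE 0.10, adjusted p = 0.206). It passed with library weights (-0.69, limma, adjusted p = 0.00726). It also passed when OE replicate 2 and Vec replicate 2 were both left out of the block model (-0.55, limma, adjusted p = 0.0161). Those 2 settings called 346 and 148 of the kept loci, and G3BP1 was not called in the other 19 of 21 alternatives. In the fit without both libraries numbered 2, limma used a variance fitted over all loci in place of the gene's own. Its p-value therefore does not measure the scatter of G3BP1. G3BP2 had the highest mean level of the list at 45.2 FPKM, and RPP38 the largest positive log2 fold change at 0.14.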

How the data were processed

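RNA from 6 libraries of SACC-83 cells was extracted with TRIzol and mRNA libraries were made with a NEBNext Ultra kit, per the labels' protocols. The submitters' processing notes name HISAT2 and GRCh38. The sources used here give no counter, annotation or version. The authors deposited FPKM for 27328 loci, of which 19974 had Ensembl identifiers, all matched in GENCODE release 29. These values are FPKM and not read counts, so depth and counting error are unknown.

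The filter kept 12064 loci that reached 1 FPKM in 3 or more of the 6 libraries. Values entered limma 3.58.1 (R 4.3.3) as log2(FPKM + 1), which understates changes of low genes (moderated with a trend, 2-sided, Benjamini-Hochberg over all kept loci, threshold 0.05). The main fit had group only; replicate number was added as a block and tested by a moderated F test. Deviations from the group means correlated across genes, between same-numbered libraries, at 0.725, 0.881 and 0.529, so numbers were taken to pair libraries from the data, not from the labels. Of the differently numbered pairs, 2 also lay above 0.1 (0.412 and 0.424). Alternatives were pseudocounts of 0.1 and 0.5, no filter, a mean of at least 5 FPKM, TPM, trimmed mean factors, quantile scaling, no trend, library weights, GC and length correction, and leaving out libraries. The fits were also run on simulated data in which both groups were given the same deviations by number. That is closer pairing than in these libraries, and the outcome is not given here.

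Named were all members, MYBL1, the 2 genes closest to each member, and of each pathway list the genes passing a test, the highest in level and both extremes of fold change; other genes were named after their values were seen. CD44, also set to be named, gave a log2 fold change of 0.36 (limma with the block, adjusted p = 0.445). Some genes of these lists are not reported here and are in none of the list counts. Members and lists were chosen with earlier results of these data known.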

Additional observations from a re-analysis of the deposited data

How the results depend on the processing

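The count of members called between OE and Vec was 0 in all 21 alternatives. Over all kept loci it was 0 in the group-only fit, 12 with the replicate block, 2 with the block and GC and length correction, and 346 with library weights. It was 0 to 1 without 1 library and 14, 148 and 22 in the block fit without replicate 1, 2 or 3 of both groups. The block changed no call of a member. Calls by replicate number were 5605 over all loci, 3389 without a filter, 3663 without Vec replicate 2 and 447 to 6174 over the left-out libraries. Members called by number were 6, with 4 to 6 in the alternatives that kept all libraries and 0 to 7 in those that left out libraries (3 without Vec replicate 2). The causes were not tested.

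The log2 fold changes between OE and Vec kept their sign for QKI (-0.263 to -0.027 over the left-out libraries) and turned for the other 7 members. Over the left-out libraries they were -0.261 to 0.011 for MBNL1, -0.155 to 0.118 for HNRNPL, -0.318 to 0.234 for DHX9, -0.138 to 0.23 for ILF2, -0.279 to 0.322 for DDX39A, -0.164 to 0.182 for DDX39B and -0.247 to 0.049 for YTHDF2. The DDX39A to DDX39B log2 ratio difference ranged from -0.116 to 0.14. In the block fit, leaving out replicate 1 of both groups gave 0.011 for MBNL1, 0.008 for HNRNPL and 0.024 for YTHDF2, replicate 2 gave -0.109 for DHX9, -0.021 for ILF2, -0.015 for DDX39A, -0.021 for DDX39B and -0.016 for ESRP2, and replicate 3 gave 0.036 for HNRNPL and -0.043 for EIF2AK2. Library weights gave -0.046 for DHX9, -0.085 for ILF2, -0.147 for DDX39A, -0.06 for DDX39B, -0.03 for ESRP2, 0.067 for MBNL2 and -0.064 for SNRNP70. GC and length correction, with and without the block, gave -0.059 for DDX39A and -0.064 for SNRNP70. Quantile scaling gave -0.013 for DHX9 and -0.012 for DDX39B, and trimmed mean factors -0.003 for DHX9. Over the left-out libraries ESRP2 ranged from -0.121 to 0.361, MBNL2 from -0.358 to 0.137, EIF2AK2 from -0.043 to 0.25 (-0.01 to 0.25 without 1 library), SNRNP70 from -0.054 to 0.137, EIF4A3 from -0.07 to 0.43 and RPP38 from -0.003 to 0.236. Of the 22 pathway genes called by number, 11 kept the call in every alternative with all 6 libraries. Depth is unknown, so precision rests on 3 libraries per group.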
